A study of Mus musculus with 6 samples.

Results

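Splenic CD11b+Gr-1high cells of G-CSF-treated mice were compared with the same cells of control mice (WT). The 4 arrays of these groups, G-CSF replicates 1 and 2 and WT replicates 1 and 2, were taken by their titles from the 6 arrays of the series. All donors were female BALB/c mice, obtained at 6 to 8 weeks of age, and no engineered allele is named for any group. G-CSF mice were injected under the skin with recombinant G-CSF on 5 consecutive days, at 10 µg a day. WT mice bore no tumor. The study names PBS-treated controls in a figure legend on suppression assays, and refers to that figure for the array groups. Whether the WT mice of the arrays were injected is not stated. The other 2 arrays of the series hold cells of mice bearing 4T1, a BALB/c mammary carcinoma line (4T1-TB), and entered the fit to estimate the spread between arrays, with their own levels given in a few places. Cells were sorted by flow cytometry to over 98% purity in 2 independent experiments. Whether animals were pooled, and which arrays came from the same experiment, is not given in the sources used here, so p-values measure the spread between these arrays only.

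G-CSF is the cytokine that drives the production of neutrophils and their release from the bone marrow. It binds the receptor Csf3r on neutrophils and their precursors, which signals through JAK kinases to STAT3 and is held back by SOCS proteins. Gr-1 is an antibody epitope shared by Ly6G and Ly6C, and cells with much of it are mostly neutrophils or their late precursors. Such cells fill the spleen of mice given G-CSF, and are called granulocytic myeloid-derived suppressor cells (MDSC) where they restrain T cells. Neutrophils make their granules in order, with myeloperoxidase and elastase in primary granules, lactoferrin in secondary granules and gelatinase in tertiary granules.

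Every probe has a log2 intensity after quantile normalization, which gives all arrays the same distribution, and a detection p, which sets the probe against negative controls. Probes with a detection p under 0.05 are called detected, and those numbered 9488 and 10036 on G-CSF replicates 1 and 2, against 9175 and 7421 on WT replicates 1 and 2. Before normalization the bright end differed between the groups. At the 95th percentile, intensity was 542.7 and 401.8 in G-CSF cells and 247.3 and 207.2 in WT cells, while medians lay between 117.2 and 126.9. The direction of a modest change in a bright probe therefore rests on the normalization, and changes whose sign turned with another scaling are given below for most probes described.

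The sorted cells were checked by 12 genes that define mouse neutrophils, of which 11 have a probe and Ly6g has none here. Of the 11, 0 rose and 3 fell (27.3%, against 8.48% over the genes of highest level), namely Csf3r, Itgam and S100a8, by the test described in the next paragraph. Whether or not they passed, 7 were lower and 3 higher on both G-CSF arrays than on both WT arrays, and the median change was −0.48, against 0.18 and 0 calls with median centring. S100a8, a subunit of the neutrophil protein calprotectin, was among the brightest genes, with log2 values of 13.81 and 13.70 in G-CSF cells and 14.27 and 14.20 in WT cells. Its partner S100a9 had 12.80 and 12.63 in G-CSF cells and 12.58 and 12.95 in WT cells, so that the groups overlapped (its change was −0.05, and 0.96 with median centring). Lactoferrin (Ltf) and lipocalin 2 (Lcn2) were above 13 on all 4 arrays. Itgam, which encodes CD11b, was detected on 0 of 2 G-CSF arrays (6.84 and 7.00) and on both WT arrays (7.78 and 7.95). The decrease was at least 1.78-fold (adjusted p = 0.00859 in limma), a call lost without either WT array (adjusted p = 0.0552 and 0.0807). The only Itgam probe thus did not register on the G-CSF arrays a transcript whose protein the sort selected for.

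A total of 1005 probes were higher in G-CSF cells (2.22% of 45281) and 1048 were lower (2.31%) at an adjusted p under 0.05 in limma, with 2 arrays per group. "Rose" and "fell" are used for this test only. With at least a 2-fold change and an unadjusted P under 0.01, the criterion in the methods of the study, 596 probes were higher (1.32%) and 706 lower (1.56%). All 1005 higher and all 1048 lower probes separated the groups, with both G-CSF arrays above or below both WT arrays. With 2 arrays per group the test hardly lets an overlapping probe pass, so this separation adds no support to the calls. With 1 probe per gene, 785 of 19057 genes rose (4.12%) and 543 fell (2.85%), and the median log2 fold change was 0.01. Of the 6353 genes with the highest mean level, to which most genes named here belong, 12.3% rose and 8.48% fell, with a median of 0.15. Whether or not they passed the test, 5078 genes were higher (26.6%) and 3468 lower (18.2%) on both G-CSF arrays than on both WT arrays. Of the higher probes 204 were undetected on both WT arrays, and of the lower probes 414 were undetected on both G-CSF arrays. For such a probe the change is a bound ("at least"), in which the undetected side is raised to the dimmest signal that counts as detected on that array.

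The number of calls depended on which array was left out. The fit takes 1 spread per probe over all groups. The SD of the difference between replicates was 0.63 in G-CSF, 0.32 in 4T1-TB and 0.20 in WT cells. Without a WT array the spread came from the other groups, so a lost call need not mean a different change. For the brightest Csf3r probe the change was −2.83, and −2.92 and −2.73 without WT replicates 1 and 2 in turn. Without WT replicate 1 the counts were 219 higher and 487 lower probes, and without WT replicate 2 they were 200 and 494. Without G-CSF replicate 1 they were 1710 and 1289, and without G-CSF replicate 2 they were 3053 and 2036. Of the 785 genes that rose 137 passed whichever of the 4 arrays was left out (17.5%), and of the 543 that fell 183 did (33.7%). These are called held genes below. Leaving out a G-CSF array takes the largest replicate difference out of the spread, and most calls were kept there. The name thus rests mainly on the omission of WT arrays. It refers to quantile normalized values only. With median centring 16 of the 135 called probes of named genes kept their calls. When each array was centred on its own median instead of quantile normalized, 1005 of the 1005 higher probes kept their sign but 963 of the 1048 lower probes did, and the adjusted test passed 96 higher and 16 lower probes. The share of higher calls was then 85.7%, against 49.0% with quantile normalization. The plot of both scalings shows the shift, which over 11527 probes detected on 2 or more arrays gave a median change of 0.21 with median centring and 0.07 with quantile normalization, and in the 305 brightest probes 1.71 and 0.44.

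**Figure D1:**
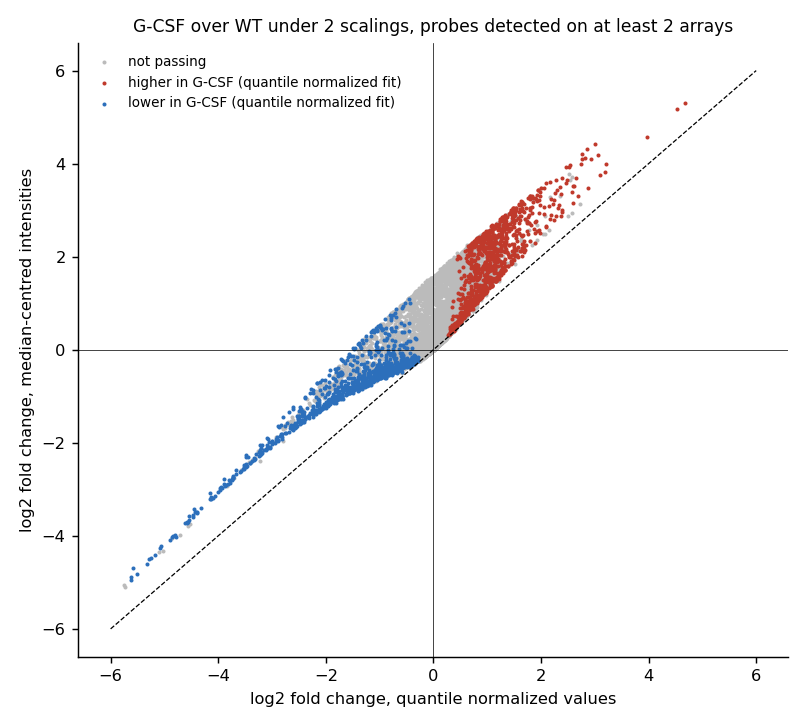
Log2 fold change of G-CSF over WT with quantile normalized values (x axis) and with median-centred intensities (y axis) for 11527 probes detected on at least 2 arrays, colored by the adjusted test on quantile normalized values. Nearly all points lie above the dashed line of equality, the higher probes all stay above 0, and 963 of the 1048 lower probes stay below it.

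Acute phase proteins and stefins included some of the larger increases. Stefins are small inhibitors of cysteine proteases such as cathepsins, and the mouse carries a cluster of them on chromosome 16. Of 25 measured genes of this list 7 rose (28.0%) and 0 fell, with a list median of 0.09, counting 1 probe per gene. Haptoglobin (Hp), a member, was counted by its brightest probe, which did not pass, while its other probes fell (−4.84 and −4.15) and are described with the differences between the G-CSF arrays. Without G-CSF replicate 2 the list had 8 genes that rose and 2 that fell, and with the mean of the detected probes 7 and 1. The 7 were Saa3, Ambp, Stfa2, Stfa2l1, Stfa1, Csta3 and Cstb, and their changes ran from 1.5 to 3.97 on the log2 scale.

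Saa3, serum amyloid A3, had log2 values of 10.61 and 11.15 in G-CSF cells, against 6.91 and 6.92 in WT cells, where it was not detected. That is at least 14.0-fold higher in G-CSF cells, with a fitted change of 3.97 ± 0.17 (SE, adjusted p = 0.000707). Ambp, the precursor of alpha-1-microglobulin and bikunin, had 10.06 and 10.42 in G-CSF cells and 7.12 and 7.18 in WT cells (3.09 ± 0.14, adjusted p = 0.000739). Both G-CSF arrays lay far above both WT arrays for these genes, and both are held genes.

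Stfa2 has 2 probes and both rose. The brighter gave 13.26 and 13.08 in G-CSF cells and 10.23 and 10.60 in WT cells, a change of 2.75 ± 0.20 (adjusted p = 0.00249). The dimmer gave 12.36 and 11.36 in G-CSF cells and 7.24 and 7.41 in WT cells, a change of 4.53 ± 0.33 (adjusted p = 0.00231). The probes thus agreed on the direction and differed in size, and both kept their calls whichever array was left out. Stfa1 gave 13.21 and 12.87 in G-CSF cells and 11.25 and 11.37 in WT cells with its brighter probe (1.73 ± 0.15, adjusted p = 0.00394), and its other probe changed by 1.80 ± 0.22 (adjusted p = 0.0116).

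Stfa2l1 gave 9.90 and 9.11 in G-CSF cells and 7.28 and 7.37 in WT cells (2.18 ± 0.25, adjusted p = 0.00938), and a further probe was undetected on all 4 arrays. Csta3, a related stefin, gave 10.87 and 10.70 in G-CSF cells and 9.01 and 9.20 in WT cells (1.68 ± 0.19, adjusted p = 0.00940). Stfa3 was detected on 1 of the 4 arrays, and its change of 0.25 ± 0.10 did not pass (adjusted p = 0.338). Stefin genes are close relatives, and whether a probe for one binds the transcript of another was not tested. Without WT replicate 1 the brighter Stfa1 probe had an adjusted p of 0.0517. Stfa2l1 and Csta3 lost their calls without either WT array, with adjusted p between 0.0762 and 0.0949. The count for the list was 4 without WT replicate 1 and 5 with median centring.

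The 250 bases before the start of Stfa1, Stfa2, Stfa2l1 and Saa3 are printed because these genes rose together. They come from RefSeq on GRCm38.p6, 5′ to 3′ on the strand of the gene. Capitals mark GAGGAA or TTCCTC, the core that the myeloid factor PU.1 prefers, and TTNNGCAA or TTGCNNAA, a form bound by C/EBP proteins. The intervals are chr16:36276898-36277147 on the plus strand for Stfa1, chr16:36408364-36408613 on the minus strand for Stfa2, chr16:36156561-36156810 on the plus strand for Stfa2l1 and chr7:46715677-46715926 on the minus strand for Saa3.
Stfa1: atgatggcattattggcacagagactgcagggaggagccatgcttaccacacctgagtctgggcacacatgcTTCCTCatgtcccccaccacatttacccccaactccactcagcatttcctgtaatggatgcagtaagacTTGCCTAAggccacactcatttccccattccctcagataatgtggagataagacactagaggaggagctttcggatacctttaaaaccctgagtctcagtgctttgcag
Stfa2: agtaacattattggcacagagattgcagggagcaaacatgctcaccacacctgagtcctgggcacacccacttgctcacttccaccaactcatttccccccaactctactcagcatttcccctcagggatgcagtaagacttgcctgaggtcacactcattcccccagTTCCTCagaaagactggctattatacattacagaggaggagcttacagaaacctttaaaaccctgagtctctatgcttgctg
Stfa2l1: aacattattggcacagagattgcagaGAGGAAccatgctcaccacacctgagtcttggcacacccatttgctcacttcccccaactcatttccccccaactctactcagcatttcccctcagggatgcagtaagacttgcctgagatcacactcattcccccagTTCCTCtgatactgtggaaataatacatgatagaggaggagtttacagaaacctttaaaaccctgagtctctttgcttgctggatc
Saa3: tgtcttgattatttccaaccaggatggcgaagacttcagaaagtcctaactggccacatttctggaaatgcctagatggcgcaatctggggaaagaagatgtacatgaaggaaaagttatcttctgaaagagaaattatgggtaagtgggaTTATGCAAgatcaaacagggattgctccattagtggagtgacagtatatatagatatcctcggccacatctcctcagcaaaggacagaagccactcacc
The PU.1 core stands 82 bases before the start in Stfa2, 86 and 224 bases before it in Stfa2l1, and 178 before it in Stfa1, and there is none in Saa3. The C/EBP form stands 109 bases before the start of Stfa1 and 99 before that of Saa3. TTCNNNGAA, the form that STAT proteins bind, was not found in these 4 windows. Among 32851 windows of the same length, 23.3% hold the PU.1 core, 9.56% the C/EBP form and 7.02% the STAT form, all searched on both strands. These are matches of letters only, and no binding was measured here.

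**Figure D2:**
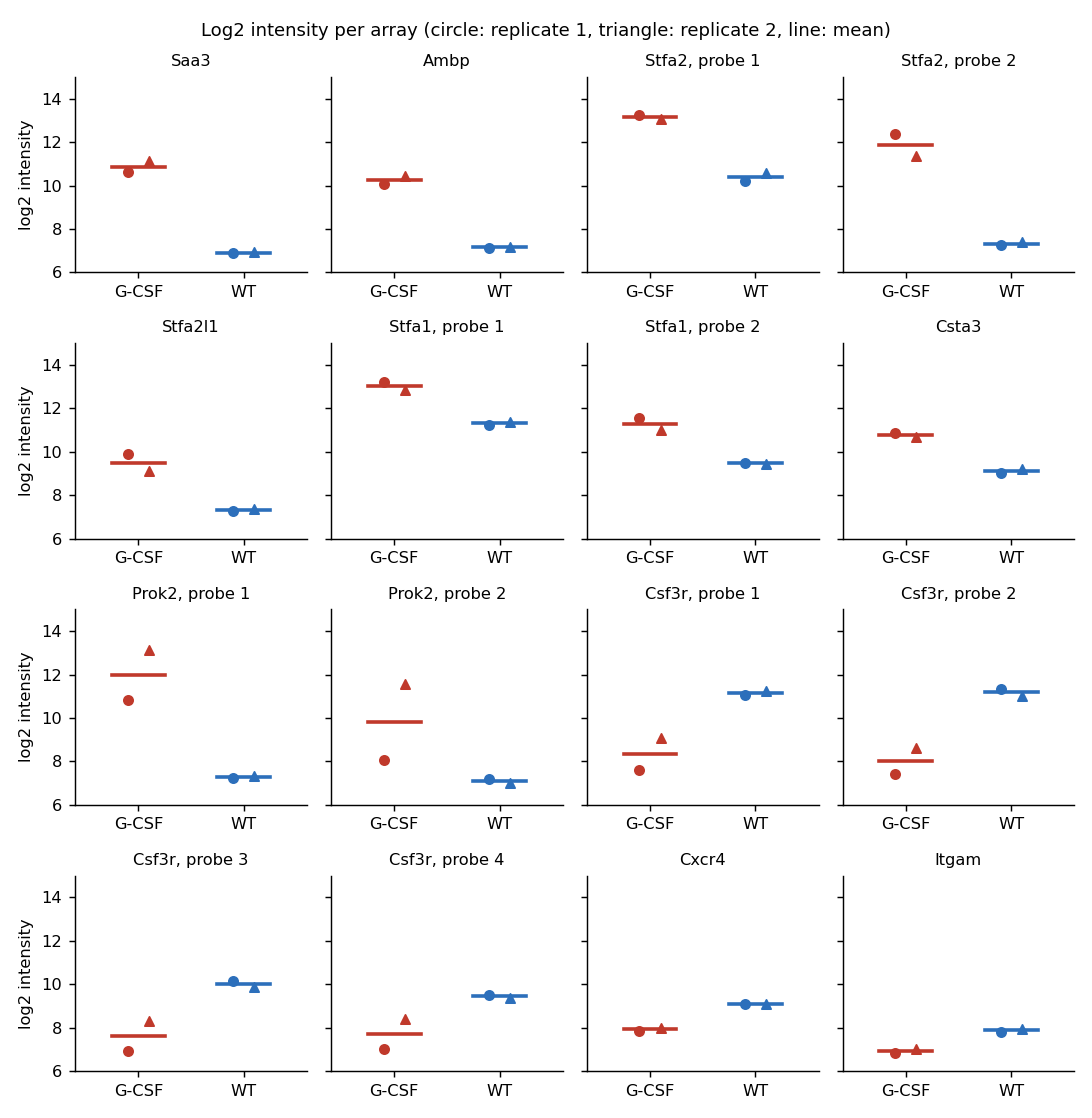
Log2 intensity (y axis) of 16 probes on the 2 G-CSF arrays (left, red) and the 2 WT arrays (right, blue), with circles for replicate 1, triangles for replicate 2 and lines for the mean. Probes of 1 gene are numbered by mean level. G-CSF arrays lie above WT arrays for Saa3, Ambp, the stefins and Prok2, and below them for the Csf3r probes, Cxcr4 and Itgam, and the G-CSF arrays stand 2.31 apart for the brighter Prok2 probe.

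Prok2, a chemoattractant also called Bv8 that G-CSF is known to induce in myeloid cells, rose. It had 10.81 and 13.12 in G-CSF cells and 7.24 and 7.34 in WT cells, a change of 4.67 ± 0.84 (adjusted p = 0.0425). The G-CSF arrays differed by 2.31 on the log2 scale, more than any WT difference over the 11527 detected probes, none of which reached 2-fold. A further probe gave 8.05 and 11.57 in G-CSF cells and 7.18 and 7.00 in WT cells and did not pass (2.72 ± 1.08, adjusted p = 0.366). The call was lost without either WT array (adjusted p = 0.239 and 0.255).

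The G-CSF receptor gene itself fell. Csf3r had 7.59 and 9.08 in G-CSF cells and 11.06 and 11.26 in WT cells with its brightest probe (−2.83 ± 0.45, adjusted p = 0.0296). Of its 5 probes 3 fell, another changed by −1.75 ± 0.42 (adjusted p = 0.107) and the last was undetected on all 4 arrays. All 4 detected probes were lower on replicate 1 than on replicate 2 of the G-CSF group. The call of the brightest probe was lost without WT replicate 1 (adjusted p = 0.174) and without WT replicate 2 (0.222), and with median centring its change was −1.63.

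Of 30 measured genes of G-CSF receptor signaling 1 rose and 2 fell, with a median near 0. The gene that rose was Cish, a SOCS-family feedback inhibitor, at 8.50 and 7.89 in G-CSF cells and 6.98 and 6.96 in WT cells, where it was undetected. This is at least 2.18-fold higher (1.22 ± 0.22, adjusted p = 0.0404), and the call was lost without either WT array (adjusted p = 0.223 and 0.255). Socs3, the main inhibitor of this receptor, had 11.01 and 12.16 in G-CSF cells and 10.97 and 10.93 in WT cells, and did not pass (0.63 ± 0.35, adjusted p = 0.575). Only G-CSF replicate 2 stood clear of the WT arrays. Stat3 had 9.23 and 9.81 in G-CSF cells and 8.82 and 9.09 in WT cells with its brightest probe (0.56 ± 0.21, adjusted p = 0.341). With median centring this probe changed by 1.95 and passed (adjusted p = 0.0406). The dimmest Stat3 probe fell, at 6.91 and 6.90 in G-CSF cells and 8.29 and 8.29 in WT cells (at least 2.39-fold lower, adjusted p = 0.000502). Il6ra, the receptor of IL-6, fell by 1.10 on the log2 scale (adjusted p = 0.0305), but with median centring its change was 0.39, and the call was lost without either WT array (adjusted p = 0.192 and 0.212).

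More receptor genes fell than rose with quantile normalization. Of 36 measured receptors and adhesion genes of neutrophils 2 rose (5.56%) and 6 fell (16.7%), Csf3r and Itgam among them. The genes of highest level had 12.3% and 8.48%. The list median was −0.20. With median centring 0 passed and the median was 0.06. Clec7a, the beta-glucan receptor Dectin-1, had 7.38 and 7.89 in G-CSF cells and 10.46 and 10.34 in WT cells (−2.77 ± 0.17, adjusted p = 0.00139). Cd300lf, an inhibitory receptor of the CD300 family, had 7.04 and 7.35 in G-CSF cells and 9.34 and 9.32 in WT cells (−2.13 ± 0.10, adjusted p = 0.000894). Fcgr4, an activating receptor for IgG, went the other way, at 13.50 and 13.29 in G-CSF cells and 12.06 and 12.25 in WT cells (1.24 ± 0.11, adjusted p = 0.00390). These 3 are held genes.

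Of the chemokine receptors that oppose each other in marrow retention and release, 1 fell. Cxcr4, which holds neutrophils in the marrow, had 7.85 and 7.98 in G-CSF cells and 9.09 and 9.10 in WT cells (−1.18 ± 0.17, adjusted p = 0.0202). Its call was lost without either WT array (adjusted p = 0.147 and 0.164), and with median centring its change was −0.06. Cxcr2, which draws them out, had 9.10 and 9.69 in G-CSF cells and 10.74 and 10.68 in WT cells and did not pass (−1.31 ± 0.30, adjusted p = 0.0876), and its change was 0.18 with median centring. The remaining calls of the list were Trem1, which fell, and Tlr4, which rose. The list had 2 genes that fell without either WT array.

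Granule genes showed no common direction. Of 12 measured genes of primary granules 1 rose and 0 fell, of 15 of secondary granules 0 rose and 2 fell, and of 14 of tertiary granules and secretory vesicles 2 rose and 2 fell. The medians were 0.16, 0.08 and, for the last, close to 0. Mpo (myeloperoxidase) had 7.85 and 7.15 in G-CSF cells and 6.94 and 6.76 in WT cells, with its brightest probe, which was undetected in WT cells (at least 1.35-fold, 0.65 ± 0.52, adjusted p = 0.728). A second Mpo probe was detected on 1 array of each group. Prtn3 (proteinase 3) had 7.22 and 7.89 in G-CSF cells and 6.96 and 6.91 in WT cells, also undetected (at least 1.40-fold, 0.62 ± 0.22, adjusted p = 0.295). Ctsc, the protease that activates such enzymes, rose by 0.59 ± 0.10, at least 1.23-fold (adjusted p = 0.0414), a call lost without either WT array and without G-CSF replicate 1 (adjusted p between 0.0587 and 0.243).

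Among secondary granule genes Ltf had 14.27 and 13.57 in G-CSF cells and 13.14 and 13.25 in WT cells (0.73 ± 0.22, adjusted p = 0.195). Ngp, neutrophilic granule protein, had 7.28 and 9.99 in G-CSF cells and 12.21 and 11.91 in WT cells, yet did not pass (−3.42 ± 0.82, adjusted p = 0.107), and the G-CSF arrays differed by more than the 2 WT arrays. Camp and Lcn2 changed by −0.64 ± 0.26 and 0.27 ± 0.18 (adjusted p = 0.373 and 0.661), and Camp by 0.80 with median centring. Lyz2, lysozyme, fell with its brightest probe, at 7.79 and 8.62 in G-CSF cells and 13.79 and 13.79 in WT cells (−5.58 ± 0.26, adjusted p = 0.000806). Its other detected probe gave 9.58 and 8.79 in G-CSF cells and 8.92 and 8.85 in WT cells (0.30 ± 0.27, adjusted p = 0.765), so the probes of this gene did not agree.

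Olfm4, a marker of a neutrophil subset, fell and is a held gene, at 6.95 and 7.06 in G-CSF cells and 8.13 and 8.0 in WT cells (−1.06 ± 0.07, adjusted p = 0.00208). In the tertiary list Cfp, the complement activator properdin, rose, at 13.12 and 12.72 in G-CSF cells and 11.52 and 11.46 in WT cells (1.43 ± 0.14, adjusted p = 0.00584). Adam8, a surface protease, fell, at 7.43 and 7.52 in G-CSF cells and 8.77 and 8.67 in WT cells (−1.24 ± 0.08, adjusted p = 0.00164). With median centring the changes were −0.58 for Olfm4 and −0.37 for Adam8, and neither passed in limma (adjusted p = 0.148 and 0.576). Adam8 is a held gene, and Cfp lost its call without either WT array (adjusted p = 0.0626 and 0.0688). Mmp9 (gelatinase B) changed by −0.37 ± 0.10 (adjusted p = 0.165) and by 1.15 with median centring, and Mmp8 was undetected on all 4 arrays.

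Genes tied to suppression by MDSC were split. Of 31 measured members 5 rose (16.1%, Prok2, Alox5, Wfdc17, Xbp1 and Ncf4) and 4 fell (12.9%, Tgfb1, Cd274, Slc7a11 and S100a8). These shares were near the 12.3% and 8.48% of the genes of highest level. The list median was −0.03, and 0.10 with median centring, where 1 rose and 0 fell. Alox5 was counted by its brightest probe, while its other probes fell (−2.91 and −0.61, adjusted p = 0.00486 and 0.0372). Wfdc17, a secreted protein of activated myeloid cells, had 10.94 and 11.17 in G-CSF cells and 9.20 and 9.22 in WT cells (1.84 ± 0.09, adjusted p = 0.000950). Tgfb1, which encodes the suppressive cytokine TGF-beta 1, had 6.90 and 7.48 in G-CSF cells and 9.99 and 9.57 in WT cells (−2.59 ± 0.22, adjusted p = 0.00379). Both are held genes. S100a8 fell by 0.48 on the log2 scale (adjusted p = 0.0176), and with median centring its change was 0.18. Without WT replicates 1 and 2 in turn its adjusted p was 0.131 and 0.101.

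The enzymes most often tied to arginine depletion gave little. Arg2 had 8.68 and 7.99 in G-CSF cells and 7.29 and 7.35 in WT cells and missed the threshold (1.01 ± 0.22, adjusted p = 0.0743). Arg1 and Nos2 were each detected on 1 array per group. The Cybb probe, for the catalytic subunit of the NADPH oxidase, was undetected on all 4 arrays, while Ncf4, a regulatory subunit, rose by 0.98 ± 0.12 (adjusted p = 0.0121). Ncf4 and Prok2 lost their calls without either WT array. The list then had 2 genes that rose and 2 that fell without WT replicate 1, and 1 of each without WT replicate 2.

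Few cytokine genes passed the test. Of 32 measured, 1 rose (Osm) and 4 fell (Tgfb1, Ccl6, Ccl3 and Il1rn), a share of 12.5%, near the 8.48% of the genes of highest level. The median was −0.02, and with median centring it was 0.05 and 0 passed. Ccl3, a chemokine made by myeloid cells, had 6.89 and 7.17 in G-CSF cells and 8.90 and 8.94 in WT cells (−1.89 ± 0.10, adjusted p = 0.000996), and is a held gene. Il1b had 10.62 and 12.08 in G-CSF cells and 13.39 and 13.54 in WT cells and did not pass (−2.11 ± 0.44, adjusted p = 0.0695). Il1rn, the antagonist of the IL-1 receptor, fell by 0.82 on the log2 scale with its brightest probe (adjusted p = 0.0133), which gave 0.31 with median centring. A second Il1rn probe fell at least 3.41-fold (adjusted p = 0.00186). Without either WT array 2 of the list fell and 0 rose.

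Among 31 measured myeloid transcription factors 1 rose (3.23%, Lmo4) and 5 fell (16.1%, Ets1, Klf6, Rara, Irf5 and Id2). The genes of highest level had 12.3% and 8.48%. The list median of −0.07 became 0.02 with median centring, where 0 of the list passed and Klf6 gave 0.14. Rara, the retinoic acid receptor that acts in granulocyte maturation, had 7.09 and 6.91 in G-CSF cells and 8.48 and 8.15 in WT cells (−1.31 ± 0.12, adjusted p = 0.00485). Irf5, a regulator of inflammatory cytokine genes, had 7.19 and 7.37 in G-CSF cells and 8.22 and 8.39 in WT cells (−1.02 ± 0.09, adjusted p = 0.00437). With median centring the changes were −0.72 for Rara and −0.35 for Irf5, and neither passed in limma (adjusted p = 0.198 and 0.304). Both are held genes, and without either WT array the list had 2 that fell. Cebpb, the C/EBP factor of emergency granulopoiesis, overlapped between groups, with 11.95 and 12.35 in G-CSF cells and 12.23 and 11.87 in WT cells. Spi1, which encodes PU.1, had 6.86 and 9.02 in G-CSF cells and 9.72 and 9.40 in WT cells (−1.61 ± 0.65, adjusted p = 0.379).

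Zfp36l1, an RNA-binding protein that shortens the life of AU-rich transcripts, rose with both of its detected probes. The brighter had 12.66 and 12.11 in G-CSF cells and 9.63 and 9.63 in WT cells (2.75 ± 0.17, adjusted p = 0.00156), and the other changed by 2.40 ± 0.13 (adjusted p = 0.00104). Both kept their calls whichever array was left out. The other genes with the largest increases over at least 2 concordant probes were Flot2, Anxa3, Hsd11b1, Dbi and Tpi1. Flot2, a membrane scaffold protein, had 12.79 and 12.29 in G-CSF cells and 10.08 and 10.08 in WT cells (2.46 ± 0.17, adjusted p = 0.00208), with 2.86 ± 0.20 for a second probe (adjusted p = 0.00221). Dbi, which carries acyl-CoA, had 11.99 and 12.01 in G-CSF cells and 8.81 and 9.18 in WT cells (3.0 ± 0.15, adjusted p = 0.000988).

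Anxa3, an annexin of neutrophil granules, had 12.54 and 11.54 in G-CSF cells and 9.37 and 9.62 in WT cells with the probe of smaller error (2.54 ± 0.32, adjusted p = 0.0125). Hsd11b1, which regenerates active glucocorticoid, changed by 2.65 ± 0.45 and 2.36 ± 0.39 with the probes that passed (adjusted p = 0.0354 and 0.0336), and another missed the threshold at 2.35 ± 0.49 (adjusted p = 0.0698). Both genes were higher on replicate 1 than on replicate 2 of the G-CSF group, and lost their calls without either WT array (adjusted p between 0.0982 and 0.275). Gclm, the modifier subunit of the enzyme that limits glutathione synthesis, had 9.77 and 9.86 in G-CSF cells and 6.93 and 6.95 in WT cells, where it was undetected. The increase was at least 6.72-fold, and it is a held gene (2.88 ± 0.15, adjusted p = 0.00110).

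Genes of energy metabolism rose more often than they fell. So did the genes of highest level (12.3% against 8.48%, with a median of 0.15). Over all probes the median was 0.33 at mean levels from 8 to below 9, and 0.42 from 10 to below 11. Of 61 measured subunits of oxidative phosphorylation 18 rose (29.5%) and 2 fell (3.28%), with a median of 0.31. With median centring 6 of this list rose and 0 fell. The 18 changed by 0.72 to 1.94 on the log2 scale. Ndufb8, a subunit of complex I, had 10.55 and 10.39 in G-CSF cells and 9.36 and 9.31 in WT cells (1.14 ± 0.08, adjusted p = 0.00221). Atp5j2, a subunit of the ATP synthase, had 11.79 and 11.89 in G-CSF cells and 10.80 and 10.84 in WT cells (1.02 ± 0.07, adjusted p = 0.00167). Both are held genes, and 7 of the list rose without WT replicate 1 or without WT replicate 2.

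Of 21 measured glycolytic genes 7 rose (33.3%, Tpi1, Gapdh, Ldha, Slc2a1, Slc2a6, Pgk1 and Pfkl) and 1 fell (Pfkp), with a median of 0.26. With median centring 3 of this list rose and 0 fell. Tpi1, triosephosphate isomerase, had 11.65 and 11.30 in G-CSF cells and 8.61 and 8.71 in WT cells (2.82 ± 0.13, adjusted p = 0.000782). Pfkp, the platelet form of phosphofructokinase, was undetected in G-CSF cells (6.91 and 6.90) and had 9.43 and 9.19 in WT cells, which is at least 4.85-fold lower in G-CSF cells (adjusted p = 0.00432, and 0.0543 without WT replicate 1). The rises in the list numbered 3 without WT replicate 1 and 4 without WT replicate 2. Of 26 measured genes of the citric acid cycle 4 rose (15.4%, near the 12.3% of the genes of highest level) and 1 fell. With median centring 0 of these genes passed. Among the 4 was the held gene Suclg1 (1.75 ± 0.13, adjusted p = 0.00255), which makes succinate from succinyl-CoA.

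Mitochondrial ribosomal proteins behaved alike, with 15 of 74 measured rising (20.3%) and 1 falling, and a median of 0.31. Their rises were small, from 0.34 to 1.54. Of the genes of highest level 12.3% rose and 8.48% fell, and with median centring 1 of this list rose and 0 fell. Mrpl17 had 9.38 and 9.33 in G-CSF cells and 8.43 and 8.34 in WT cells (0.97 ± 0.10, adjusted p = 0.00683). Without either WT array 0 of the 15 passed, and for Mrpl17 the adjusted p was 0.0621 and 0.0762. Cytosolic ribosomal proteins showed no such pattern, with 2 of 55 rising and 3 falling.

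Genes of the secretory path and the proteasome also rose more often than they fell. Of 44 measured genes of ER translocation and vesicle coats 9 rose (20.5%) and 0 fell, and of 40 proteasome genes 9 rose (22.5%) and 3 fell, with medians of 0.11 and 0.21. Of the genes of highest level 12.3% rose and 8.48% fell, and with median centring 0 of either list passed. Sec11a, the signal peptidase subunit, had 8.41 and 8.35 in G-CSF cells and 7.38 and 7.43 in WT cells (0.98 ± 0.06, adjusted p = 0.00153). Psma5, a subunit of the proteasome core, had 9.80 and 9.69 in G-CSF cells and 8.77 and 8.69 in WT cells (1.01 ± 0.07, adjusted p = 0.00181). Both are held genes. The rises numbered 1 and 3 in the secretory list and 1 and 1 in the proteasome list without WT replicates 1 and 2 in turn, and 4 and 6 with the replicate number as a block.

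Psmb8, the interferon-induced core subunit of the immunoproteasome, fell, at 6.91 and 7.04 in G-CSF cells and 10.40 and 10.03 in WT cells (−3.24 ± 0.13, adjusted p = 0.000593). Psmb8 is a held gene. It also belongs to the list of MHC class I and peptide loading, in which 0 of 20 measured genes rose and 4 fell (Pdia3, H2-D1, Psmb8 and Calr), with a median of −0.04, against −0.03 with median centring. Calr, the chaperone calreticulin, was undetected in G-CSF cells (6.83 and 6.85) and had 7.82 and 7.44 in WT cells, at least 1.51-fold lower in G-CSF cells (adjusted p = 0.0282). The list had 2 genes that fell without either WT array. Interferon response genes were split, with 4 of 44 rising (9.09%, Ifitm1, Ifitm3, Eif2ak2 and Gbp2) and 5 falling (11.4%, Psmb8, Isg15, Ifit3, Oas3 and Irf9). The genes of highest level had 12.3% and 8.48%. The median of −0.07 became 0.09 with median centring, where 0 of the list passed and Irf9 gave 0.48. Eif2ak2, the kinase PKR, had 8.96 and 8.87 in G-CSF cells and 7.78 and 7.68 in WT cells (1.19 ± 0.08, adjusted p = 0.00182).

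Lysosomal genes rose for 5 of 35 measured (14.3%) and fell for 2 (5.71%), near the 12.3% and 8.48% of the genes of highest level. With median centring 0 of the list passed. Ctse, cathepsin E, had 13.04 and 12.80 in G-CSF cells and 11.16 and 11.36 in WT cells (1.66 ± 0.11, adjusted p = 0.00166), and Ctsb, cathepsin B, changed by 0.93 ± 0.07 (adjusted p = 0.00227). Ctsa, the protective protein of lysosomal enzymes, was undetected in G-CSF cells (6.88 and 6.88) and had 8.99 and 8.92 in WT cells, at least 3.79-fold lower in G-CSF cells (adjusted p = 0.00363). All 3 are held genes. The rises in the list numbered 2 without either WT array.

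**Figure D3:**
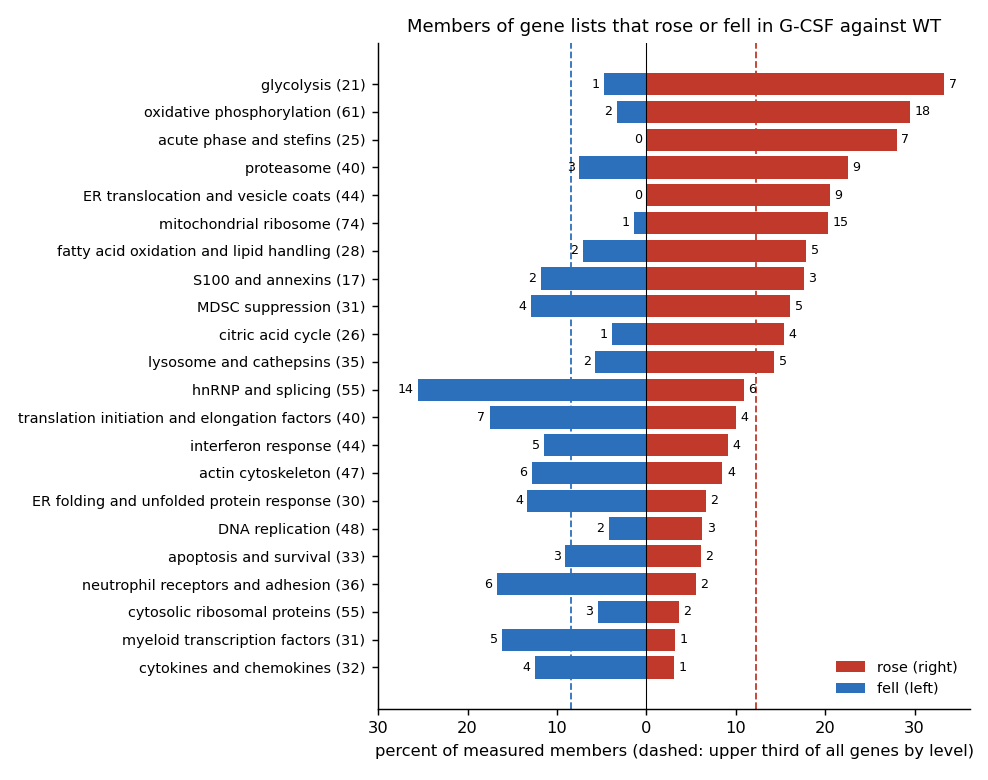
Percent of measured members (x axis) that rose (right, red) or fell (left, blue) in G-CSF against WT for the gene lists with at least 5 calls, with the number measured in parentheses and the calls at the bar ends. Dashed lines mark the 6353 genes of highest mean level, 12.3% risen and 8.48% fallen. Glycolysis and oxidative phosphorylation have the highest share of rises, and hnRNP and splicing genes the highest share of falls.

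RNA-binding proteins fell more often than they rose. Of 55 measured hnRNP and splicing genes 14 fell (25.5%) and 6 rose, with a median of −0.05. With median centring 0 fell and 2 rose, and the median was 0.04. The falls ran between −5.62 and −0.95. Hnrnpk, which binds poly-C stretches, had 6.91 and 7.07 in G-CSF cells and 11.75 and 11.82 in WT cells (−4.80 ± 0.40, adjusted p = 0.00352). Srsf5, a splicing factor, was undetected in G-CSF cells (6.87 and 6.92) and had 10.69 and 10.58 in WT cells, at least 12.1-fold lower in G-CSF cells (adjusted p = 0.000589). Both are held genes. The falls numbered 5 and 6 without WT replicates 1 and 2 in turn.

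Of 40 measured translation factors 4 rose and 7 fell, and without either WT array 0 rose and 1 fell. Of 47 measured genes of the actin cytoskeleton 4 rose (8.51%) and 6 fell (12.8%). Their median of −0.12 became 0.33 with median centring, where 0 passed. Lcp1, the actin bundling protein L-plastin, had 7.31 and 7.92 in G-CSF cells and 11.54 and 11.61 in WT cells (−3.96 ± 0.19, adjusted p = 0.000901). Wasf2, which activates the Arp2/3 complex, had 6.98 and 7.11 in G-CSF cells and 10.20 and 10.13 in WT cells (−3.11 ± 0.19, adjusted p = 0.00138). Both are held genes. All 4 of these probes were at or below 7.92 on both G-CSF arrays.

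Probes of the same gene often disagreed. Of 1441 genes with at least 2 probes detected on both arrays of a group 687 had a probe that passed. All detected probes passed in 1 direction in 88 of these (12.8%), of which 37 were higher and 51 lower. In 51 genes (7.42%) probes passed in opposite directions, and in the other 548 some passed and others did not. Ifitm1, an interferon-induced membrane protein, rose with its brightest probe, at 14.20 and 14.00 in G-CSF cells and 12.70 and 12.70 in WT cells (1.40 ± 0.08, adjusted p = 0.00119). A dimmer Ifitm1 probe fell, at 6.82 and 7.84 in G-CSF cells and 11.23 and 11.01 in WT cells (−3.79 ± 0.32, adjusted p = 0.00369, and 0.0503 without WT replicate 1). Alox5, the 5-lipoxygenase that starts leukotriene synthesis, and Pabpc1, the poly-A binding protein, were split in the same way.

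Slc11a1, the phagosomal metal transporter Nramp1, had 2 probes that fell to the detection limit and 2 that did not change beyond the test. One of those that fell had 6.98 and 7.00 in G-CSF cells and 10.34 and 10.03 in WT cells (at least 8.89-fold lower, adjusted p = 0.000492). The brightest had 12.89 and 12.81 in G-CSF cells and 12.33 and 12.48 in WT cells (0.44 ± 0.09, adjusted p = 0.0700). Of 5 Rnf167 probes, for a ubiquitin ligase of endosomes, 3 fell, with changes of −2.89 to −3.57, and another, detected on all 4 arrays, changed by −0.18 ± 0.13 (adjusted p = 0.684), and by 1.18 with median centring. For such genes the array gives no single value of the change.

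With quantile normalization, falls over several probes of 1 gene outnumbered rises. Of 783 genes with a lower probe, 98 had at least 2 passing probes and all of these lower. Of 852 genes with a higher probe, 45 had at least 2 passing and all of them higher. These genes were not counted with median centring, where 96 higher and 16 lower probes passed. Orc5, of the origin recognition complex, fell with both probes, at 7.26 and 7.02 in G-CSF cells and 11.17 and 11.37 in WT cells with the brighter (−4.13 ± 0.51, adjusted p = 0.0120). Adgre5, the adhesion receptor CD97, fell with all 3 probes, with changes of −2.54 to −3.72 (adjusted p between 0.0239 and 0.0418). Psma7, a proteasome core subunit, fell with both (−3.66 ± 0.42 and −2.40 ± 0.21). Coro1a, the leukocyte actin regulator coronin 1A, had 7.37 and 9.53 in G-CSF cells and 13.25 and 13.21 in WT cells with its brightest probe (−4.78 ± 0.65, adjusted p = 0.0169). A second Coro1a probe fell at least 19.5-fold (adjusted p = 0.000265), and 2 further probes changed by −1.78 ± 0.66 and −1.76 ± 0.71 and did not pass. Without either WT array the calls of Orc5 and Adgre5 and of the brightest Coro1a and Psma7 probes were lost (adjusted p between 0.0882 and 0.258), and without WT replicate 2 that of the other Psma7 probe (0.0550).

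**Figure D4:**
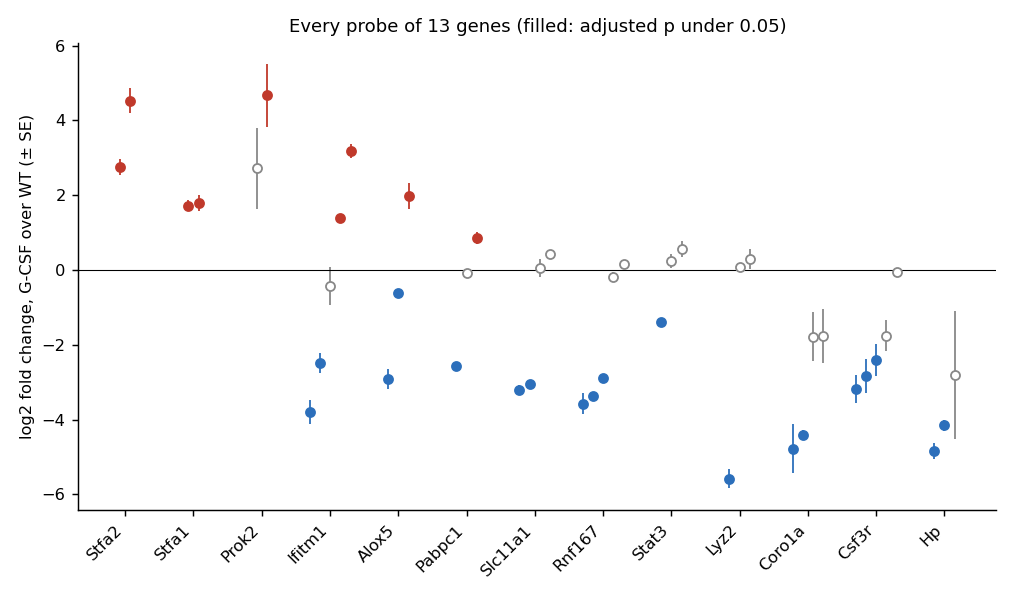
Log2 fold change of G-CSF over WT with its standard error (y axis) for every probe of 13 genes (x axis), filled where the adjusted p is under 0.05 and open where it is not. Stfa2 and Stfa1 have probes that agree, while Ifitm1, Alox5 and Pabpc1 have filled probes on both sides of 0 and Slc11a1, Rnf167, Stat3 and Lyz2 have filled probes below 0 beside open probes near it.

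The 2 G-CSF arrays differed from each other more than the WT arrays did. For the 11527 probes with detection on 2 or more arrays, the SD of the difference between replicates was 0.63 in G-CSF cells and 0.20 in WT cells. A difference of at least 2-fold was found for 871 probes in the G-CSF group (7.56%) and for 0 in the WT group. Of the 871, 228 were higher on replicate 1 and 643 higher on replicate 2. Among the higher probes the change was larger on replicate 1 for 78.4% (medians of 1.08 on replicate 1 and 0.86 on replicate 2), and among the lower probes for 65.3% (−1.24 and −1.14). Both arrays alone reached 2-fold against the WT mean for 351 of the 1005 higher and 573 of the 1048 lower probes.

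Red cell genes stood at the head of the probes high on replicate 1 alone. Slc4a1, the anion exchanger band 3 of erythrocytes, had 12.24 on G-CSF replicate 1 and 6.88 on replicate 2, against 6.98 and 7.13 in WT cells. Alas2, the erythroid enzyme that starts heme synthesis, had 11.12 and 6.93 in G-CSF cells and 6.88 and 6.87 in WT cells. The beta-globin gene Hbb-bt had 14.07 and 10.06 in G-CSF cells and 10.36 and 10.06 in WT cells. In each case a single array stood apart, and none of these genes passed the test (adjusted p between 0.740 and 0.830). The list of 19 measured erythroid genes had 12 and 4 detected in G-CSF cells and 3 and 4 in WT cells, with a summed intensity, on the normalized scale, of 15735 and 4889 in G-CSF cells and 5683 and 4967 in WT cells, and 0 genes passed at an adjusted or unadjusted p under 0.05 in limma. Slc4a1 had 11.58 on 4T1-TB replicate 1 and 6.91 on 4T1-TB replicate 2, so that 1 array of that group was high as well, and Alas2 had 11.15 and 6.88.

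Probes much lower on replicate 1 than on replicate 2 were of another kind. Gpx1, the glutathione peroxidase that reduces hydrogen peroxide, had 7.39 on G-CSF replicate 1 and 13.36 on replicate 2, against 13.60 and 13.60 in WT cells. Rps9, a protein of the small ribosomal subunit, had 8.42 and 14.27 in G-CSF cells and 13.20 and 13.31 in WT cells. Gpx4, which reduces lipid peroxides, had 7.10 and 12.27 in G-CSF cells and 11.54 and 11.67 in WT cells. Replicate 2 was thus close to the WT arrays, and replicate 1 stood apart. Of 806 probes with a WT mean of at least 10, 90 were at least 2 lower on replicate 1 while replicate 2 stayed within 1 of the WT mean, and 0 showed the opposite. The 90 had medians of 7.78 on G-CSF replicate 1 and 10.86 on replicate 2, against 11.10 and 11.08 in WT cells, and their medians in 4T1-TB cells were 8.62 and 8.75. A further 136 were at least 2 lower on both G-CSF arrays, and 120 of these passed the adjusted test.

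Hp, haptoglobin, joins both patterns. Its brightest probe had 7.70 and 13.42 in G-CSF cells and 13.26 and 13.45 in WT cells and did not pass (−2.80 ± 1.71, adjusted p = 0.617). Its other probes fell, at 6.92 and 7.62 in G-CSF cells and 12.15 and 12.06 in WT cells for one (−4.84 ± 0.22, adjusted p = 0.000766), with −4.15 ± 0.14 for the other (adjusted p = 0.000492). The 2 that fell kept their calls whichever array was left out.

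**Figure D5:**
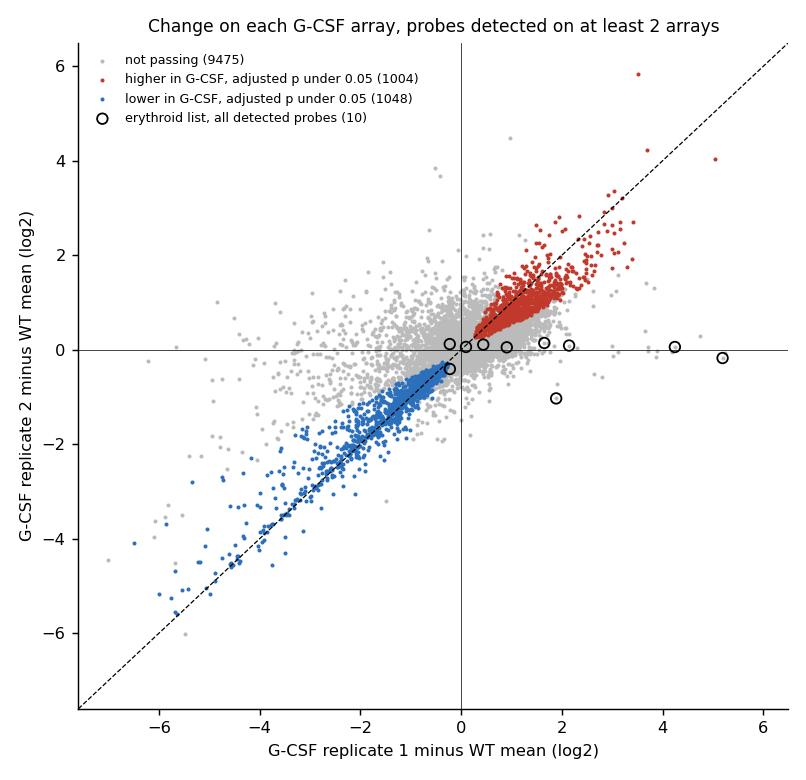
Difference of G-CSF replicate 1 (x axis) and G-CSF replicate 2 (y axis) from the WT mean on the log2 scale for 11527 probes detected on at least 2 arrays, with the higher (red) and lower (blue) probes of the adjusted test and the erythroid list (rings). The legend counts 1004 of the 1005 higher probes because 1 was detected on fewer arrays. Called probes lie along the dashed line of equality, with the larger change on replicate 1 for 78.4% of the higher and 65.3% of the lower probes. A band of probes that did not pass lies near 0 on replicate 2 and extends to −6 on replicate 1. The erythroid genes high on replicate 1 lie near 0 on replicate 2.

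Markers of other cell types were read on the same arrays, where fewer cells of a type and less RNA per cell cannot be told apart. T cell genes were detected for 9 and 5 of 20 measured in G-CSF cells and 5 and 2 in WT cells, with summed intensities of 4439 and 4236 in G-CSF cells and 3123 and 3330 in WT cells. B cell genes were detected for 9 and 1 of 17 in G-CSF cells and 5 and 1 in WT cells. Replicate 1 of the G-CSF group thus had more detected lymphocyte genes than replicate 2, as it had more erythroid genes. Of these lists 1 gene rose, the B cell and leukocyte tetraspanin Cd37, at 10.36 and 10.35 in G-CSF cells and 8.98 and 9.05 in WT cells (1.34 ± 0.07, adjusted p = 0.00104). The T cell list had 0 calls in limma, with 3 genes higher at an unadjusted p under 0.05. Natural killer, dendritic cell and eosinophil lists had 0 calls among 15, 17 and 9 genes, with 2 dendritic cell genes higher and 1 lower at an unadjusted p under 0.05, and sums between 1078 and 2298 on the 4 arrays. The part of admixed cells in the changes above was not tested.

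Monocyte genes had summed intensities of 10592 and 8595 in G-CSF cells and 16153 and 15262 in WT cells, and macrophage genes 11498 and 11542 in G-CSF cells and 10298 and 10900 in WT cells. Of 20 measured monocyte genes 0 rose and 1 fell (5.0%), and of 22 macrophage genes 0 rose and 4 fell (18.2%, C1qc, Lgmn, Vcam1 and C1qb). Of the genes of highest level 8.48% fell, and of all genes 2.85%. With median centring 0 of either list passed. Treml4, a receptor of splenic monocytes and macrophages, had 7.12 and 7.33 in G-CSF cells and 9.38 and 9.36 in WT cells (−2.14 ± 0.08, adjusted p = 0.000593). C1qc, a chain of complement C1q, was undetected in G-CSF cells (6.98 and 6.99) and had 8.28 and 8.19 in WT cells, at least 2.31-fold lower in G-CSF cells (adjusted p = 0.000824). Both are held genes. The macrophage count was 1 without WT replicate 1 and 2 without WT replicate 2.

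Kit, the receptor of stem cell factor on progenitors and mast cells, had 8.80 and 9.66 in G-CSF cells and 6.84 and 6.86 in WT cells, where it was undetected. The increase was at least 4.46-fold (2.37 ± 0.33, adjusted p = 0.0179), and the call was lost without either WT array (adjusted p = 0.141 and 0.150). It was the single call among 15 measured stem and progenitor genes and 1 of 2 among 14 genes of basophils and mast cells, the other being Hdc, histidine decarboxylase (0.52 ± 0.06, adjusted p = 0.0115, and 0.0640 and 0.0949 without WT replicates 1 and 2 in turn). Genes of division gave few calls. Of 40 measured mitosis genes 0 passed in limma, 2 were higher and 3 lower at an unadjusted p under 0.05, and 20 were undetected on all 4 arrays. Of 48 measured genes of DNA replication 3 rose and 2 fell. Rfc2, of the clamp loader, rose and is a held gene, at 10.95 and 10.74 in G-CSF cells and 9.13 and 9.29 in WT cells (1.64 ± 0.09, adjusted p = 0.00127), whereas E2f1, an activator of S phase genes, had 7.39 and 6.94 in G-CSF cells and 10.90 and 10.89 in WT cells (−3.73 ± 0.37, adjusted p = 0.00592). The E2f1 call was lost without either WT array (adjusted p = 0.0676 and 0.0685).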

How the data were processed

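RNA of sorted cells was hybridised to Illumina MouseWG-6 v2 bead arrays. The authors exported 1 intensity and 1 detection p-value per probe and array with GenomeStudio and deposited both; neither labels nor methods name its version. Background subtraction is named in the methods, but no deposited intensity was at or below 0 and the lowest was 85.3. The authors deposited log2 values after quantile normalization, which quantile normalization of the deposited intensities here matched within 4.99e-09. Among the intensity columns, 1 in each of the G-CSF and 4T1-TB groups is unnumbered and was taken as replicate 1, since the other is numbered 2.

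The deposited log2 values of 45281 probes on 6 arrays were fitted by group in limma 3.58.1 (R 4.3.3). The G-CSF minus WT contrast was adjusted by Benjamini-Hochberg over all probes. The fit was also run on simulated arrays whose groups shared 1 spread per probe, unlike these arrays, so that run does not test the calls. With 2 arrays per group and 3 residual degrees of freedom, the number of arrays limits the precision. Symbols came from the platform annotation (34885 probes with 1 gene, 18 with several, 10378 with none). The probe with the highest mean log2 value stood for a gene. Of 1558 entries in 50 gene lists, 1430 had a probe. Genes were named if they had the largest changes over at least 2 concordant probes, the smallest adjusted p in a list, or the largest difference between the G-CSF arrays, or came from 36 genes taken whatever their values. Some further list members were named after their values were seen. The members and lists were chosen with earlier results of these data known.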

Additional observations from a re-analysis of the deposited data

How the results depend on the processing

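Own quantile normalization gave the same counts of higher and lower probes at an adjusted p under 0.05 in limma (1005 and 1048), and between 873 and 1301 passed in either direction with neqc background correction, probes detected on at least 2 arrays, the brighter probes alone, the replicate block or a trended and robust prior. Median centring gave 96 higher and 16 lower probes, and 1508 and 229 by the 2-fold criterion (596 and 706 with quantile normalization), so that 85.7% and 86.8% of calls were higher, against 49.0% and 45.8%. By the 2-fold criterion neqc gave 1431 higher and 1132 lower (55.8% higher). A floor at the lowest detected signal gave 626 higher, and a fit of only the 4 arrays 573. Leaving out each of the 6 arrays in turn gave 200 to 3053 higher and 487 to 2036 lower at the adjusted threshold, and 436 to 1173 higher and 593 to 1153 lower by the 2-fold criterion, with the fewest adjusted calls without a WT array and the most without G-CSF replicate 2. A group left with 1 array was assumed to vary like the other groups. Same-numbered deviations over 11527 probes correlated at 0.0234 between G-CSF and WT and at −0.024 between 4T1-TB and WT. Between G-CSF and 4T1-TB the value was 0.243, and Slc4a1 and Alas2 were high on replicate 1 of both groups. Whether same-numbered arrays share an experiment is not settled by these values, and the fit used no pairing. The replicate block gave 897 higher and 971 lower. Of 135 called probes of named genes, median centring kept the call of 16, the block of 128, and omission of WT replicates 1 and 2 in turn of 66 and 72. Signs turned with median centring for S100a8 (0.18), Il6ra (0.39), Dusp6 (0.11), Klf6 (0.14), Cxcr2 (0.18), S100a9 (0.96), Camp (0.80), Mmp9 (1.15) and Il1rn (0.31). With 1 array left out, changes ranged from −5.66 to 0.062 for the brightest Hp probe, from −0.23 to 0.14 for S100a9, from −0.22 to 0.042 for Elane, from −0.10 to 0.30 for Cebpb and from −0.019 to 0.66 for Cebpe. The cause of these changes was not tested.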
